A study of Mus musculus with 30 samples.

Results

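The Ifi200 genes code for the mouse PYHIN proteins, which join a pyrin domain to a DNA-binding HIN-200 domain, and lie next to each other on chromosome 1. Their transcripts were examined in bulk RNA-seq counts of whole B16 melanoma tumors. The 9 members named for this purpose were Aim2, Ifi203, Ifi204, Ifi205, Ifi207, Ifi209, Ifi211, Ifi213 and Mndal, picked by matching the Ensembl identifiers of the count table to gene symbols. All 9 had a row among the 39676 identifiers, and all 9 passed the filter on low values, an average of 10 or more counts over the tumors, which left 15926 genes for testing. A further 5 rows of the same cluster, Ifi202b, Ifi206, Ifi208, Ifi214 and the pseudogene Ifi203-ps, also passed and are given beside the members as the other family genes. The pseudogene rows Gm18752 and Gm18445 of the cluster passed too and are given once, outside the counts over 14 family genes.

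Tumors were taken on day 8 after female C57BL/6 mice received B16-F10 cells under the skin, with 10 B16-GFP, 10 B16-IFNA4 and 10 B16-IFNA9 tumors (below GFP, IFNA4 and IFNA9 tumors). The injected cells of all 3 types carried retroviral genes for herpes simplex virus glycoprotein B with cyan fluorescent protein and for firefly luciferase with puromycin resistance. They differed in the vector that a murine stem cell virus promoter drove, which held mouse IFNα4 with green fluorescent protein, IFNα9 with green fluorescent protein, or green fluorescent protein without an interferon. The vector interferon was thus carried by sorted populations of tumor cells, the mice kept their own leukocytes, and interferon from the host was not examined. The comparisons ask how the family's transcripts stood under each interferon, and whether IFNα4 and IFNα9 tumors differed.

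Interferon-α binds the receptor IFNAR, and the transcription factor complex that forms downstream binds interferon-stimulated response elements in promoters, of which the Ifi200 genes are classical targets. Aim2 binds DNA in the cytosol and recruits the adaptor Pycard (ASC), which activates caspase-1. Ifi204 binds DNA in the nucleus and cytosol and has been linked to STING signalling, and most other members have been described as nuclear proteins.

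Totals ran from 14598517 to 19788383 counts per tumor. The transgenes followed the labels. Ifna4 had 81 to 188 counts in the IFNA4 tumors, Ifna9 had 55 to 148 counts in the IFNA9 tumors, and each had 0 counts in the other 20 tumors. GFP tumor 7 stood apart, with the lowest scaling factor by the trimmed mean of M values (TMM), 0.768, and the lowest level of all 9 members within its type. Levels are given in CPM, counts relative to the library size after TMM scaling. The summed level of 4 melanocyte markers (Tyr, Mitf, Tyrp1 and Slc45a2) ran from 7608 to 24790 CPM in GFP, 2280 to 3783 CPM in IFNA4 and 3505 to 9256 CPM in IFNA9 tumors, so melanocyte transcripts were present in every tumor.

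Promoters are shown first because many RefSeq promoters of the family (GRCm38.p6, 250 bases before to 50 after each annotated start) share one short stretch. Of the 14 family genes, 12 had a promoter in the table, and 9 of these 12 held the core of the response element on either strand, spelled GAAA, any 2 bases, GAAA, against 3.99% of 27025 genes. Among the members 6 of 8 held it. Its form GAAATCGAAA, the most frequent in the family and looked for only after the promoters had been read, was in 7 of the 12 family genes and in 16 of the 27025 genes. In the lines below each motif is in capitals with 22 bases on either side, on the gene's own strand, and each line lies 5′ of the start it was taken from.
Ifi206, minus strand, chr1:173491327-173491380: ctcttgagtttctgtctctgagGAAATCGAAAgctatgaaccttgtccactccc
Ifi213, minus strand, chr1:173599314-173599367: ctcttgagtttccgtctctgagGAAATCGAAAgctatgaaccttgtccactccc
Ifi208, plus strand, chr1:173673585-173673638: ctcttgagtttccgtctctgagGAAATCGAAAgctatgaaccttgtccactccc
Ifi214, minus strand, chr1:173536005-173536058: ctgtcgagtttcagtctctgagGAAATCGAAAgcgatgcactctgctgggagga
Ifi209, plus strand, chr1:173630758-173630811: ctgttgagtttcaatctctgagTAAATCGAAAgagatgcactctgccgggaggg
Ifi207, minus strand, chr1:173741819-173741872: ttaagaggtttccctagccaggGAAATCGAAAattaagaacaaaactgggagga
Mndal, minus strand, chr1:173880192-173880245: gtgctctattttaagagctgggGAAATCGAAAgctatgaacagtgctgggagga
Ifi203, minus strand, chr1:173942496-173942549: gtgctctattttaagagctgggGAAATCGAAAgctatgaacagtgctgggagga
Ifi211, minus strand, chr1:173913052-173913105: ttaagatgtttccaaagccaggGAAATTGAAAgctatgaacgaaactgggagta
Ifi205, minus strand, chr1:174031858-174031911: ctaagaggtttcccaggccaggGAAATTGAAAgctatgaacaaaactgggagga

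The Ifi209 line is not a match. It is the stretch that aligned without gaps to the Ifi214 line, identical at 48 of 54 bases, and it carries the substitution G1T, counted from the first base of the Ifi214 motif. The motif began 35 to 79 bases before the annotated start in the other lines except Ifi205, where the distance was 134 bases. Some promoters were much alike. Over 300 bases Ifi214 and Ifi209 were 95.7% identical, and Mndal and Ifi203 were 94.0% identical. Ifi206, Ifi208 and Ifi213 formed a trio with 87.7% to 94.0% identity, and Ifi207 and Ifi211 were 86.7% identical. Mndal, at another annotated start, and Ifi205 each held 1 further match on the opposite strand. Aim2 and Ifi202b held no such letters in their windows, and Ifi204 and Ifi203-ps had no promoter in the table. Aim2 and Ifi209, both without a match, rose by 5.42-fold and 10.34-fold in IFNA4 against GFP tumors. A link between the motif and the changes given below was not tested. For Ifi202b, the family gene that passed the test in no comparison, the last 100 bases before the start are given.
Ifi202b, minus strand, chr1:173982845-173982944: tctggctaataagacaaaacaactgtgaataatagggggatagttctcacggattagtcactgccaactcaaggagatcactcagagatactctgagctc

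Sequence is also shared within the transcripts, and the reads were 50 bases long. Each gene's GENCODE M21 transcripts (GRCm38) were cut into all stretches of 50 bases, and the share of them that another gene's transcripts also held was counted. Aim2 shared 0.742% of its stretches and Ifi202b shared 0%, so nearly all their stretches occur in no other annotated transcript. Ifi211 shared 72.8%, among them 44.7% with Ifi205, 30.1% with Ifi204 and 17.1% with Mndal. Ifi209 shared 33.7%, nearly all with Ifi214. The other members shared 7.29% (Ifi207) to 20.02% (Ifi204). The annotation places Ifi211 inside the span of Mndal, and Ifi203 overlaps the 5′ end of Mndal with 37 shared exon bases on the same strand. How the authors' counting treated reads that fit several places is not given in the sources used here, so the split of counts among such paralogs is uncertain, most of all for Ifi211.

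**Figure D1:**
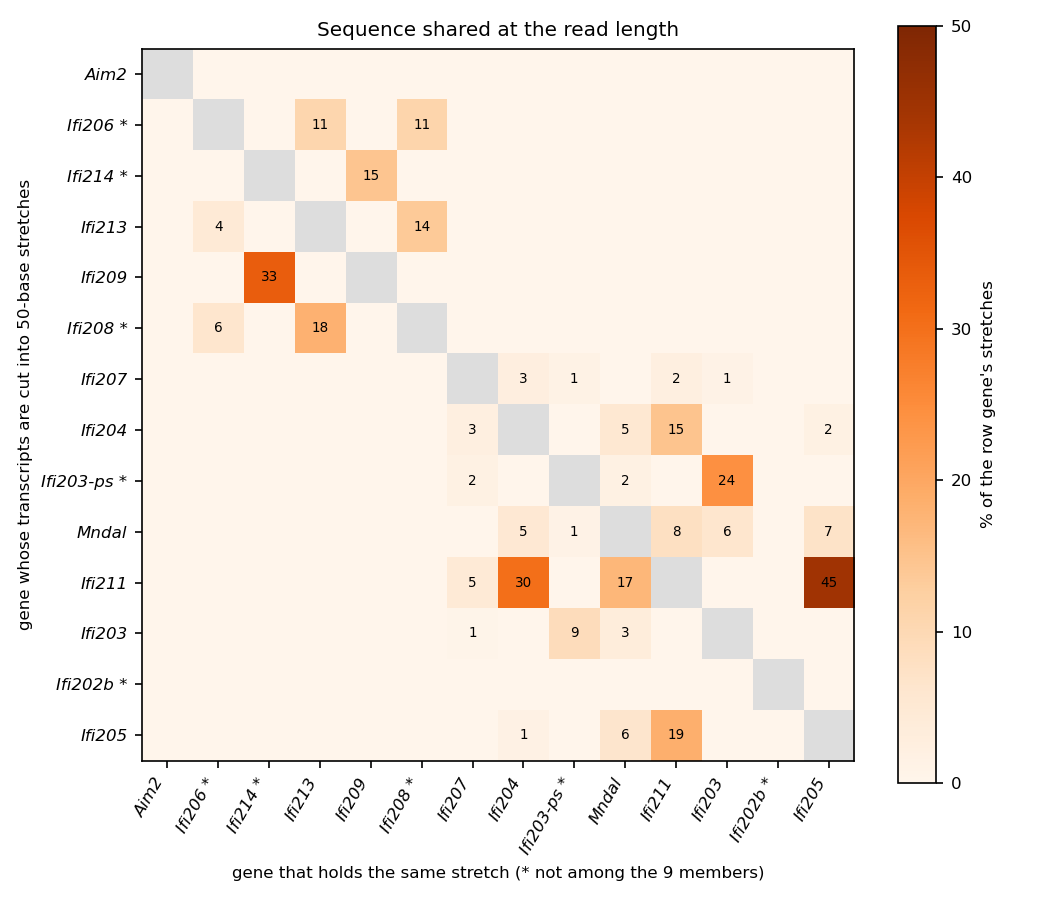
Percent of the 50-base stretches of each row gene's transcripts that the column gene also holds, for 14 family genes in chromosome order (numbers from 0.5% up are printed, grey is the gene itself). Ifi206, Ifi213 and Ifi208 share with each other, Ifi209 shares with Ifi214, the genes from Ifi207 to Ifi205 share among themselves, and Aim2 and Ifi202b stand alone.

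All 9 members rose in IFNA4 tumors against GFP tumors, by 4.00-fold (Ifi205) to 15.04-fold (Ifi213). The test was the quasi-likelihood test of edgeR, p-values were adjusted over all 15926 genes by the Benjamini-Hochberg method, and a gene passed at an adjusted p under 0.05. Of all genes tested, 31.3% passed as higher and 10.4% passed with at least a 2-fold rise. The members' median log2 fold change was 2.62, against 0.0092 for all genes. For each of the 9 members every IFNA4 tumor lay above every GFP tumor, which held for 8.5% of all genes.

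All 9 members also rose in IFNA9 tumors against GFP tumors, by 2.69-fold (Ifi205) to 7.24-fold (Ifi213), where 26.9% of genes passed as higher and 7.73% with at least a 2-fold rise. The median log2 fold change was 2.14 for the members and -0.0031 for all genes. The groups did not overlap for 8 of the 9 members, against 4.44% of genes. The exception was Ifi205, with 9 of 10 IFNA9 tumors above all GFP tumors. Scaling by library totals in place of TMM moved the calls over all genes from 4281 higher and 4595 lower to 5052 higher and 3608 lower, and left all 9 members called as higher. Both comparisons use the same 10 GFP tumors.

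Between the interferons, all 9 members had a lower fitted level in IFNA9 than in IFNA4 tumors, and 4 of the 9 passed the test, Ifi209, Ifi213, Ifi205 and Ifi211, where 7.25% of genes passed as lower. Ifi209 and Ifi213 were lower by at least 2-fold, as were 1.39% of genes. The members' log2 fold changes ran from -1.05 to -0.35 with a median of -0.51, against -0.0055 for all genes. The tumors of the types overlapped for every member, as for all but 0.741% of genes in this direction. The count of 4 was not stable. It was 8 of 9 without GFP tumor 7, 8 of 9 when only the 20 tumors compared were fitted, 2 of 9 without IFNA4 tumor 1 and 2 of 9 without IFNA9 tumor 5, the 2 being Ifi209 and Ifi213 in both of the last fits. The share of all genes that passed as lower moved as well, to 11.0%, 12.4%, 6.69% and 6.87% in these fits. In bulk tumors, fewer cells of a type and less RNA per cell cannot be told apart.

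**Figure D2:**
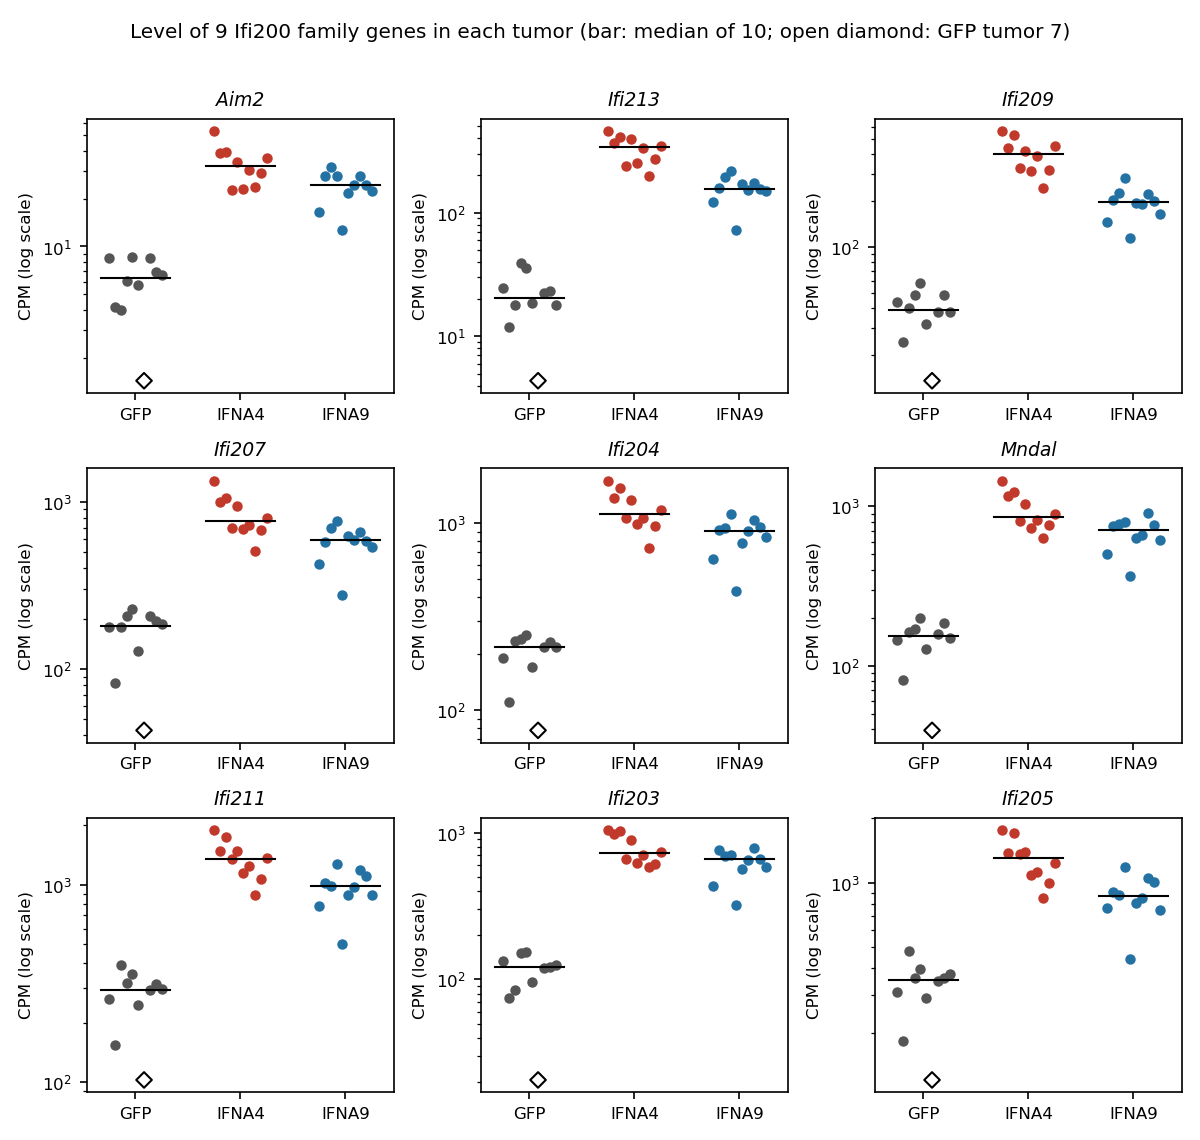
Level of each member in CPM on a log scale in the 10 tumors of each type, with a bar at the median and an open diamond for GFP tumor 7. Every IFNA4 point lies above every GFP point in all 9 panels, and the IFNA9 points overlap the IFNA4 points in each, with 1 IFNA9 point for Ifi205 inside the GFP range.

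Aim2, the inflammasome's DNA receptor, had the lowest level of the members. In GFP tumors it lay between 1.43 and 8.64 CPM with a median of 6.31 CPM, in IFNA4 tumors between 22.7 and 53.1 CPM with a median of 32.1 CPM, and in IFNA9 tumors between 12.7 and 31.4 CPM with a median of 24.2 CPM. Both interferon types lay wholly above the GFP tumors and overlapped each other. The log2 fold change was 2.44 (SE 0.22, adjusted p = 7.32e-11) for IFNA4 and 1.96 (SE 0.21, adjusted p = 1.17e-08) for IFNA9 against GFP. IFNA9 against IFNA4 gave -0.48 (SE 0.20, adjusted p = 0.102).

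Ifi204, often set beside human IFI16, ran from 77.8 to 252 CPM in GFP tumors with a median of 217 CPM. Its median was 1124 CPM in IFNA4 tumors, with a range of 735 to 1683 CPM, and 909 CPM in IFNA9 tumors, with a range of 435 to 1123 CPM. No interferon tumor reached down to a GFP tumor. The rises were 2.62 (SE 0.19, adjusted p = 8.10e-13) and 2.14 (SE 0.19, adjusted p = 9.12e-11) on the log2 scale, and IFNA9 against IFNA4 was -0.47 (SE 0.18, adjusted p = 0.0648).

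Ifi213 and Ifi209 had the largest fold changes of the 9 members in IFNA4 against GFP tumors and between the interferons, while in IFNA9 against GFP tumors Ifi203 lay between them. Ifi213 went from 4.38 to 39.1 CPM in GFP tumors (median 20.5 CPM) to 197 to 455 CPM in IFNA4 tumors (median 337 CPM) and 72.4 to 218 CPM in IFNA9 tumors (median 156 CPM). Ifi209 went from 13.6 to 58.4 CPM (median 39.1 CPM) to 240 to 565 CPM (median 403 CPM) and 114 to 280 CPM (median 197 CPM). For both genes only the upper end of the IFNA9 tumors reached the lower end of the IFNA4 tumors.

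On the log2 scale Ifi213 rose by 3.91 (SE 0.26, adjusted p = 1.06e-13) in IFNA4 and by 2.86 (SE 0.25, adjusted p = 8.58e-11) in IFNA9 tumors. Ifi209 rose by 3.37 (SE 0.20, adjusted p = 1.59e-14) and by 2.33 (SE 0.19, adjusted p = 4.13e-11). IFNA9 tumors were 2.08-fold below IFNA4 tumors for Ifi213 (adjusted p = 0.00170) and 2.06-fold below for Ifi209 (adjusted p = 1.94e-04). These calls held in all 37 alternative fits.

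Ifi205, which has been linked to the expression of Pycard in macrophages, and Ifi211, which shares most of its sequence with it and with Ifi204, were among the most abundant members. Ifi205 had medians of 353 CPM in GFP (120 to 480 CPM), 1298 CPM in IFNA4 (847 to 1755 CPM) and 863 CPM in IFNA9 tumors (441 to 1182 CPM). IFNA9 tumor 5, at 441 CPM, was the tumor that fell into the GFP range. The log2 fold changes of Ifi205 were 2.00 (SE 0.19), 1.43 (SE 0.18) and, for IFNA9 against IFNA4, -0.58 (SE 0.18, adjusted p = 0.0259).

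Ifi211 had medians of 294 CPM in GFP (103 to 393 CPM), 1357 CPM in IFNA4 (888 to 1886 CPM) and 983 CPM in IFNA9 tumors (502 to 1268 CPM). Its log2 fold change between the interferons was -0.51 (SE 0.18, adjusted p = 0.0462), just inside the threshold. The call was lost in 24 of 37 alternative fits, with adjusted p up to 0.0929. That of Ifi205 was lost in 2 of 37, without IFNA4 tumor 1 and without IFNA9 tumor 5.

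Ifi203, Ifi207 and Mndal, 3 nuclear proteins of the family, rose clearly against GFP and missed the threshold between the interferons. Ifi203 had medians of 121, 723 and 660 CPM in GFP, IFNA4 and IFNA9 tumors (ranges 20.6 to 154, 585 to 1038 and 323 to 793 CPM). Its IFNA9 against IFNA4 value, -0.35 (SE 0.21, adjusted p = 0.282), was the smallest of the 9. Ifi207 had medians of 181, 766 and 587 CPM (ranges 42.9 to 229, 508 to 1335 and 278 to 768 CPM), with -0.56 (SE 0.21, adjusted p = 0.0690) between the interferons.

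Mndal had medians of 153, 858 and 708 CPM (ranges 39.3 to 200, 631 to 1446 and 363 to 913 CPM), with -0.49 (SE 0.20, adjusted p = 0.0890) between the interferons. Against GFP the 3 genes rose by 2.86 (Ifi203), 2.37 (Ifi207) and 2.75 (Mndal) in IFNA4 and by 2.52, 1.81 and 2.26 in IFNA9 tumors on the log2 scale. None of the 3 overlapped the GFP tumors.

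Per kilobase of exon the order of the median levels could be compared between genes. In GFP tumors Ifi211 was highest with 165 CPM per kilobase, then Ifi205 with 84.5, Ifi204 with 61.1, Ifi207 with 53.0, Mndal with 42.2, Ifi203 with 18.0, Ifi209 with 11.0, Ifi213 with 3.00 and Aim2 with 1.80 CPM per kilobase. In IFNA4 tumors Ifi209 reached 114 CPM per kilobase, beside 108 for Ifi203, and Ifi213 reached 49.3. In IFNA9 tumors Ifi209 had 55.5 CPM per kilobase and Ifi203 had 98.5. The order is a description, and the share of Ifi211 depends on how shared reads were counted. It also depends on the annotation, because the length is that of all annotated exons of a gene. That length was 1785 bases for Ifi211 (1 transcript), 6706 for Ifi203 (9 transcripts) and 6840 for Ifi213 (5 transcripts). The 9 members together took a median of 0.138% of all counts in GFP, 0.695% in IFNA4 and 0.525% in IFNA9 tumors.

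Of the 5 other family genes, 4 rose against GFP in both comparisons, where 31.3% and 26.9% of all genes did. Ifi206 rose by 3.99 in IFNA4 and 3.07 in IFNA9 tumors on the log2 scale, Ifi208 by 4.10 and 2.97, Ifi214 by 3.51 and 2.52, and Ifi203-ps by 2.89 and 2.36. Ifi206, Ifi208 and Ifi214 were also lower in IFNA9 than in IFNA4 tumors, with log2 fold changes of -0.92, -1.13 and -0.99 (adjusted p = 0.00263, 6.32e-04 and 3.07e-04), where 7.25% of all genes were. The pseudogene rows Gm18752 and Gm18445, named after their values were seen, also rose, by 3.98 and 2.09 in IFNA4 and by 2.97 and 1.32 in IFNA9 tumors, and were lower in IFNA9 than in IFNA4 tumors, with -1.01 and -0.76 (adjusted p = 0.00309 and 0.00213). Gm18752 shares 32.4% of its 50-base stretches with Ifi206, Gm18445 12.0% with Ifi207, and Ifi203-ps 24.3% with Ifi203. The counts of these pseudogene rows may therefore hold reads of those paralogs. Ifi202b codes for p202, a protein without a pyrin domain that can hold back Aim2.

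Ifi202b ran from 3.30 to 28.7 CPM in GFP tumors (median 18.9 CPM), 18.4 to 55.2 CPM in IFNA4 tumors (median 22.9 CPM) and 4.49 to 31.7 CPM in IFNA9 tumors (median 18.0 CPM). The 3 ranges overlapped. Its log2 fold changes were 0.60 (SE 0.29, adjusted p = 0.0693), -0.048 (SE 0.29, adjusted p = 0.896) and -0.65 (SE 0.29, adjusted p = 0.124). DESeq2 placed it just inside the threshold in IFNA4 against GFP, with 0.61 and an adjusted p of 0.0465, as did the edgeR fits without GFP tumor 5, GFP tumor 8 or IFNA9 tumor 10 (adjusted p = 0.0418, 0.0482 and 0.0458).

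**Figure D3:**
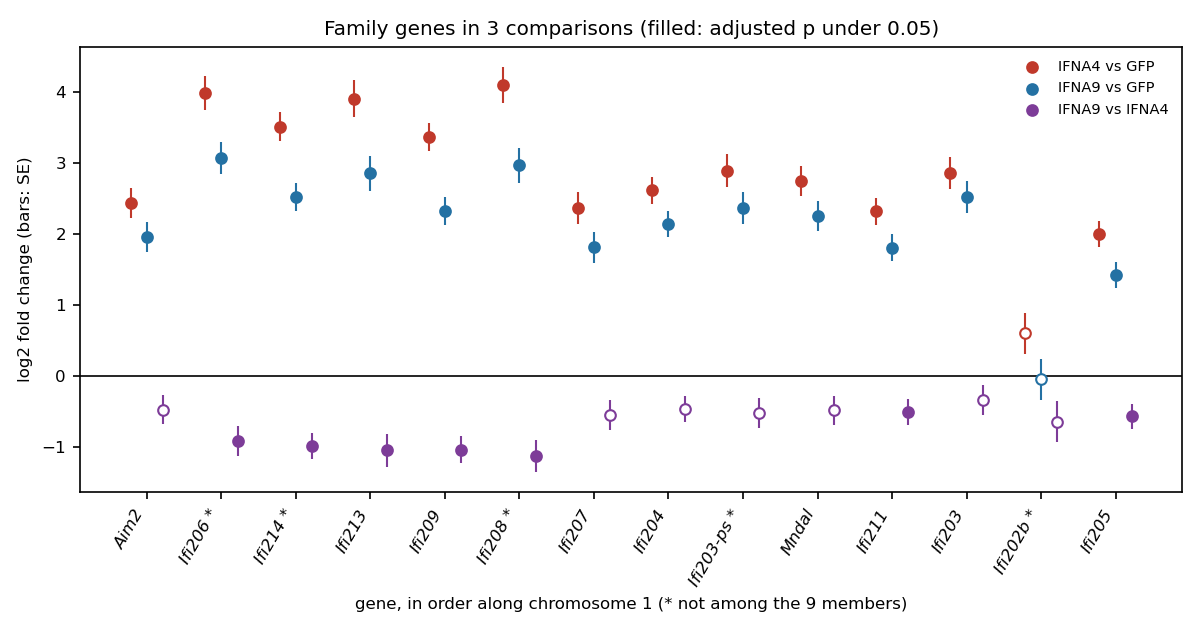
Log2 fold change with its SE for 14 family genes in chromosome order in the 3 comparisons, filled where the adjusted p was under 0.05. The 5 genes from Ifi206 to Ifi208 lie highest in IFNA4 against GFP and near -1 between the interferons, the genes from Ifi207 on lie nearer to -0.5, and Ifi202b is at 0.60 in IFNA4 and -0.048 in IFNA9 against GFP, both unfilled points.

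The sizes followed the sharing of sequence, a pattern seen after the values were known and not tested. Counts were summed within sets of paralogs that share 50-base stretches, so that reads exchanged within a set cannot change its value. The values of the sums are differences of mean log2 CPM, another measure than the fitted fold changes above, and can lie outside the range of the fitted values of their genes. The sum of Ifi206, Ifi208 and Ifi213 differed by 4.11 on the log2 scale between IFNA4 and GFP tumors, by 3.08 between IFNA9 and GFP, and by -1.03 between IFNA9 and IFNA4. The sum of Ifi209 and Ifi214 gave 3.46, 2.44 and -1.02. The sum of Ifi204, Ifi205, Ifi207, Ifi211 and Mndal gave 2.42, 1.90 and -0.52.

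Ifi203 with Ifi203-ps gave 3.00, 2.62 and -0.39. In 8 of 10 IFNA9 tumors the first sum lay below all IFNA4 tumors, and in 9 of 10 the sum of Ifi209 and Ifi214 did, against 2 of 10 for the sum of 5 genes. The sets nearest to Aim2 on the chromosome thus had the larger differences in IFNA4 against GFP tumors and between the interferons. In IFNA9 against GFP tumors Ifi203 with Ifi203-ps lay above Ifi209 with Ifi214. Reads can still be exchanged across sets. Ifi203 and Mndal share 3.34% and 6.19% of their stretches with each other, Ifi206 shares 9.80% with Gm18752 and Ifi207 shares 2.62% with Gm18445, rows that were not summed. All 9 members summed gave 2.56, 2.01 and -0.55.

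Extreme tumors were largely shared among the members. GFP tumor 7 was lowest for 9 of 9 members, IFNA4 tumor 1 highest for 9 of 9 and tumor 8 lowest for 8 of 9, and IFNA9 tumor 5 lowest for 9 of 9. The highest tumor was split in the other types, in GFP tumors 5, 3 and 4 for 6, 2 and 1 members and in IFNA9 tumors 4, 8 and 3 for 6, 2 and 1 members. Ptprc (CD45), the common leukocyte marker, was extreme in the same tumors, lowest in GFP tumor 7, IFNA4 tumor 8 and IFNA9 tumor 5 and highest in IFNA4 tumor 1. In IFNA9 tumors it was highest in tumor 2, where no member was highest. Irf7, an interferon-induced transcription factor, was also lowest in GFP tumor 7 and IFNA4 tumor 8. It was highest in IFNA9 tumor 8, as were 2 members. Irf7 was lowest in IFNA9 tumor 10 and highest in IFNA4 tumor 10 and GFP tumor 8, where no member was so extreme. The median of Ptprc was 84.0 CPM in GFP, 495 CPM in IFNA4 and 337 CPM in IFNA9 tumors. Ptprc rose by 2.65 (SE 0.23, adjusted p = 6.21e-11) and 2.14 (SE 0.23, adjusted p = 8.18e-09) against GFP on the log2 scale, within the range of the members. IFNA9 against IFNA4 was -0.52 (SE 0.22, adjusted p = 0.105).

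Relations were computed within each type, 54 in all, for the 9 members with Ptprc and with Irf7. In IFNA4 tumors Pearson's r with Ptprc ran from 0.86 (Ifi205) to 0.98 (Ifi213), and Spearman's rho from 0.87 to 1.00 (n = 10, permutation p adjusted over the 54 relations 0.000540 to 0.00453). Without the 2 tumors farthest from the median of Ptprc, r was 0.64 to 0.96. In IFNA9 tumors r was 0.86 (Ifi205) to 0.98 (Aim2) and rho 0.70 to 0.87, with adjusted permutation p of 0.000540 to 0.00580 for r, and r without 2 tumors was 0.70 to 0.95.

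All 9 members passed by r in both types. Of all other genes, 11.3% in IFNA4 and 8.61% in IFNA9 tumors had a positive r with Ptprc and a permutation p at or below 0.0313, the largest unadjusted p among the relations that passed. By rho 9 passed in IFNA4 tumors and 5 in IFNA9 tumors, where 7.64% and 3.59% of all genes met the matching limit for rho, a permutation p of 0.0170. In GFP tumors r was 0.88 to 0.97, with rho 0.50 to 0.94 and adjusted permutation p of 0.000982 to 0.0112 for r, and 9 members passed by r and 3 by rho, where 17.1% and 4.67% of genes met these limits. Without 2 tumors r fell to between -0.020 (Ifi205) and 0.84 (Aim2), so the relations of Ifi204, Ifi205 and Ifi211, with r of 0.28, -0.020 and 0.031 then, rest on those tumors. Without GFP tumor 7, 5 of 9 members still passed by r in the GFP tumors, with r from 0.78 to 0.87 for these 5 over 9 tumors and 0.62 for Ifi205 as the lowest of the others. Then 3.2% of all genes had a positive r and a permutation p at or below 0.0176, the largest unadjusted p that passed without that tumor. By rho Aim2 alone passed in these 9 tumors (rho 0.92, adjusted permutation p = 0.00744). Without 2 more tumors, r of the 5 members was 0.11 (Mndal) to 0.81 (Aim2).

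With Irf7, r was 0.67 to 0.80 and rho 0.50 to 0.85 in GFP tumors, where 9 of 9 members passed by r and 4 by rho (for r, adjusted permutation p 0.00935 to 0.0470), and r was 0.47 to 0.80 without 2 tumors. Of all genes 12.9% met the limit for r with Irf7 in GFP tumors, 3.38% in IFNA4 and 7.7% in IFNA9 tumors, and 5.65% met that for rho in GFP tumors. Without GFP tumor 7 none of the 9 passed by r and Ifi207 passed by rho (rho 0.80, adjusted permutation p = 0.0454), where 4.26% of genes met the limit for r and 2.12% that for rho in the 9 tumors. In IFNA4 tumors r was 0.19 to 0.45 and rho 0.14 to 0.28, and no member passed (adjusted permutation p 0.283 to 0.729 for r), with r of 0.072 to 0.42 without 2 tumors. In IFNA9 tumors r was -0.11 to 0.02 and rho -0.15 to 0.10, and again no member passed (adjusted permutation p 0.885 to 1.0 for r). Without 2 tumors r was -0.51 to -0.33 there. Irf7 ran from 527 to 821 CPM in IFNA4 and from 292 to 443 CPM in IFNA9 tumors. Ptprc had wider ranges, 292 to 768 CPM and 161 to 475 CPM, and a narrow range of the reference can lower r. The difference between the relations to Ptprc and to Irf7 was not tested.

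**Figure D4:**
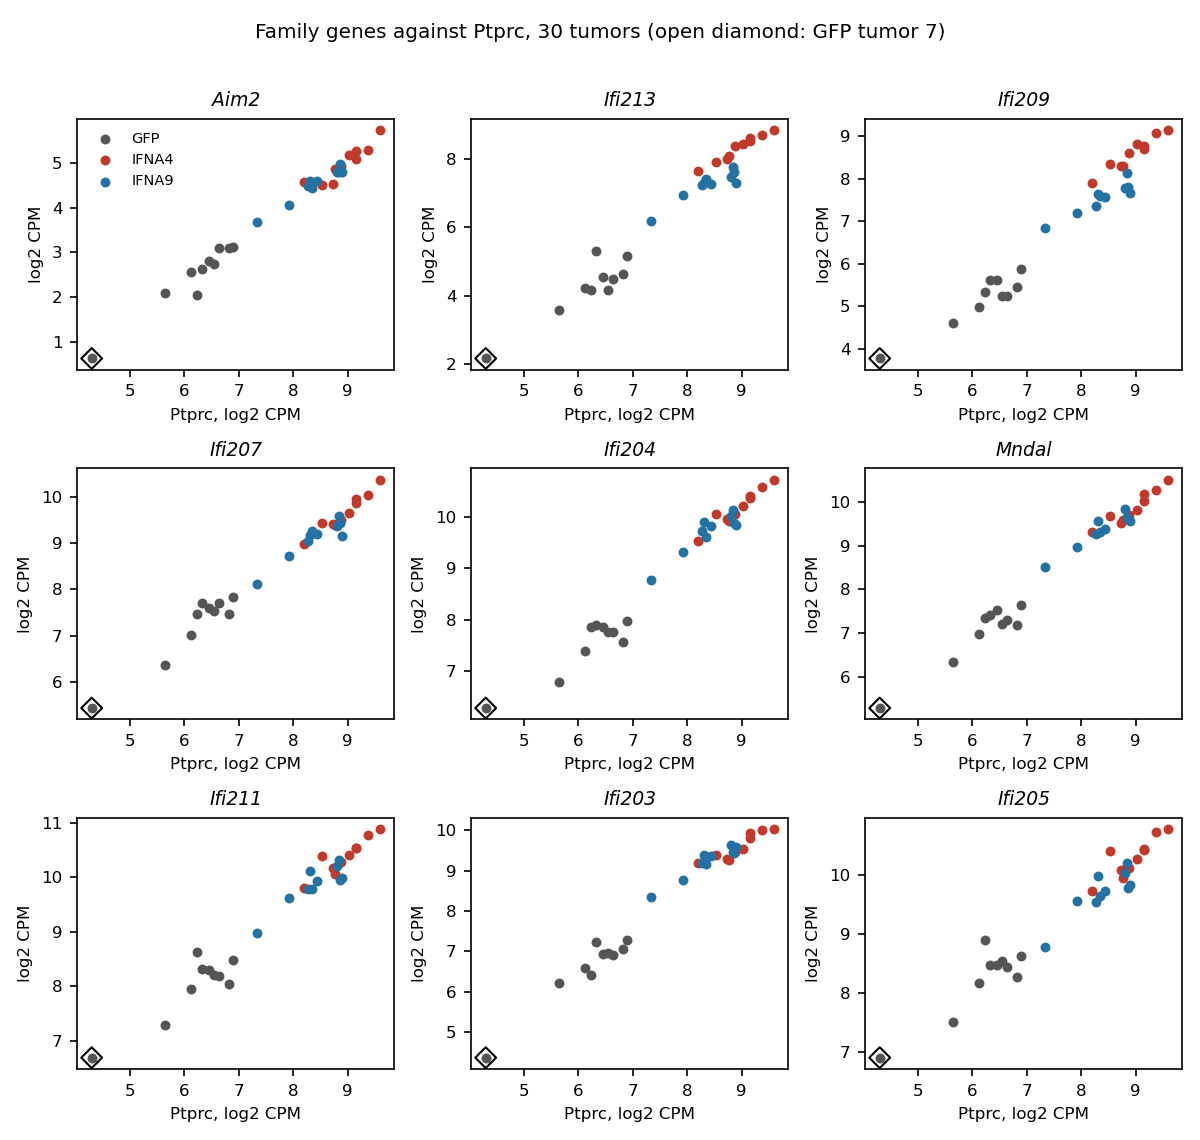
Log2 CPM of each member against log2 CPM of Ptprc in 30 tumors, coloured by type, with an open diamond around GFP tumor 7. Within the IFNA4 and IFNA9 tumors the points rise along a line (r from 0.86 to 0.98), and GFP tumor 7 lies far to the lower left.

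Because Ptprc moved with the members, the difference of log2 CPM between member and Ptprc was taken in each tumor, a measure added after the values were seen. It was tested by two-sided permutation with 100000 resamples and adjusted over 27 tests. Against GFP, this difference was higher in IFNA4 tumors for 3 members, Ifi213 by 1.32, Ifi209 by 0.68 and Ifi203 by 0.25 (adjusted permutation p = 0.000135, 0.000135 and 0.0324). It was lower for 4 members, with -0.68 for Ifi205, -0.36 for Ifi211, -0.28 for Ifi207 and -0.22 for Aim2 (adjusted permutation p = 0.000495, 0.0239, 0.00669 and 0.0291). Of all other genes, 0.854% were higher and 96.8% lower at a permutation p at or below 0.0206, the largest unadjusted p called here, so a lower value relative to Ptprc was what nearly all genes had.

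For Ifi204 and Mndal the values were -0.08 and 0.08 (adjusted permutation p = 0.610 and 0.494). Relative to Ptprc, then, the family did not move one way. In IFNA9 against GFP tumors Ifi213 was higher by 0.79 and Ifi203 by 0.43, Ifi205, Ifi211 and Ifi207 were lower with -0.73, -0.34 and -0.30 (adjusted permutation p 0.000432 to 0.0398 for these 5), and the other 4 did not pass, where 0.823% of genes were higher and 95.6% lower at that limit. Without GFP tumor 7 the call of Ifi203 in IFNA4 tumors and that of Ifi211 in IFNA9 tumors were lost (adjusted permutation p = 0.0618 and 0.0709), and the others stood. Of the 9 members, 2 differed between the interferons, Ifi213 with -0.53 and Ifi209 with -0.50 (adjusted permutation p = 0.000135 for each), and here every IFNA9 tumor lay below every IFNA4 tumor. Of all genes 0.728% were lower at that limit and 0.1% lay below without overlap.

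The other 7 members differed between the interferons by -0.05 (Ifi205) to 0.18 (Ifi203) relative to Ptprc, with adjusted permutation p from 0.0619 to 0.876. Of the other family rows, given without a test, Ifi206, Ifi208 and Ifi214 lay below in every IFNA9 tumor too. Ifi202b was lower relative to Ptprc than in GFP tumors, with -2.05 in IFNA4 and -2.21 in IFNA9 tumors and without overlap. The bulk counts used here do not show which cells held the transcripts, and a change of the cell mix and a change per cell cannot be told apart in these tumors.

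**Figure D5:**
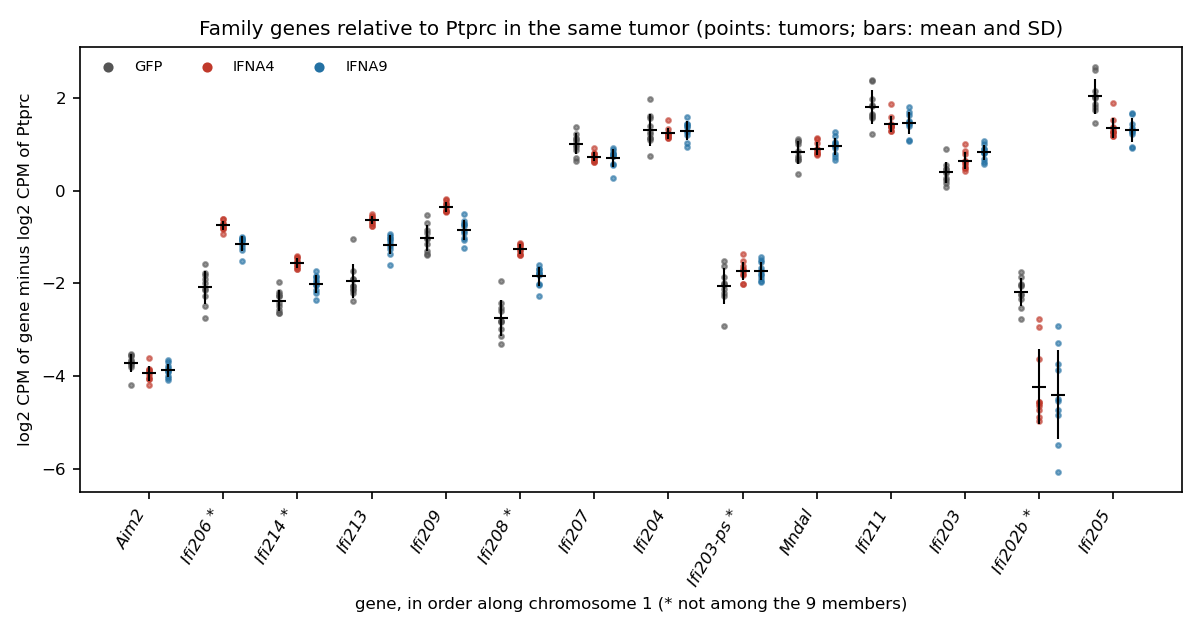
Log2 CPM of 14 family genes minus log2 CPM of Ptprc in the same tumor (points, 10 tumors a type; bars, mean and SD). Ifi206, Ifi214, Ifi213, Ifi209 and Ifi208 lie highest in IFNA4 tumors, Ifi204 and Mndal lie level across types, and Ifi205 is lower with interferon. Ifi202b is far lower with interferon, where nearly all genes were lower relative to Ptprc.

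Markers of other cells moved too, and their part in the family's values was not tested. Of 7 macrophage and monocyte markers with a row, 5 rose in each interferon type against GFP, where 31.3% and 26.9% of all genes passed as higher and 34.1% and 28.9% as lower. Their summed level ran from 201 to 823 CPM in GFP, 1188 to 2150 CPM in IFNA4 and 777 to 1524 CPM in IFNA9 tumors. Ly6c2, a marker of inflammatory monocytes, rose by 3.24 and 2.35 on the log2 scale, while Csf1r, the receptor that macrophages need, had values of -0.28 and -0.05 that did not pass. All 3 natural killer markers (Ncr1, Klrb1c and Eomes) rose, with a summed median of 3.59 CPM in GFP, 66.1 CPM in IFNA4 and 39.7 CPM in IFNA9 tumors. T cell markers rose in 6 of 6 and 5 of 6 cases, and the 4 melanocyte markers fell in both comparisons.

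The other lists moved less evenly, against the same shares of all genes. Plasmacytoid dendritic cell markers rose in 4 of 4 and 3 of 4 cases and dendritic cell markers in 3 of 5 and 5 of 5. The plasmacytoid marker that did not pass in IFNA9 tumors was Siglech, with 0.70 on the log2 scale (adjusted p = 0.0544). Its mean in GFP tumors was 0.93 CPM, beside 71.8 CPM for Bst2 and 111 CPM for Tcf4 of the same list. The 1 B cell marker that passed the filter of 4 was not called in any comparison. Of 3 neutrophil markers tested 1 rose and 2 fell in each comparison with GFP. Fibroblast markers were called higher in 0 of 3 and 1 of 3 cases, and of 3 endothelial markers 1 rose and 2 fell in IFNA4 and 2 fell in IFNA9 tumors. No marker list was at 0 in a whole type. Between the interferons 2 of 7 macrophage and monocyte markers, 1 of 3 natural killer, 3 of 4 plasmacytoid dendritic cell, 2 of 3 neutrophil and 3 of 3 endothelial markers were lower in IFNA9 tumors, and 3 of 4 melanocyte markers and 1 of 5 dendritic cell markers were higher, beside 7.25% of all genes lower and 10.5% higher. Ly6c2 and Klrb1c were among the lower ones, with -0.89 and -0.78 (adjusted p = 2.91e-04 and 0.0203).

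The genes whose pattern over the 30 tumors was most like that of the members were found by the root mean square difference of centred log2 CPM, outside the family. Lair1, an inhibitory receptor of leukocytes, was among the 2 nearest for 3 members (Ifi204, Ifi207 and Aim2), and Ms4a6b for 2 members (Ifi207 and Ifi211). Ptprc was nearest to Aim2 with a difference of 0.18, and Parp14 to Ifi203 with 0.19. For Mndal the nearest were Sp100 with 0.17 and Gm4070 with 0.18.

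Slfn1 and Phf11b were nearest to Ifi209, with 0.19 and 0.22, and the antiviral gene Mx1 and Trim30b to Ifi213, with 0.26 and 0.27. Tlr13 and P2ry14 were nearest to Ifi205, with 0.22 and 0.23, and Ifih1, Ms4a4d and Gvin1 completed the list. Within the family, Ifi209 and Ifi214 were closest with 0.10, and Ifi208 and Ifi213 followed with 0.13. These are pairs that share 50-base stretches.

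The wider DNA sensing list held genes called in both directions. Of 21 tested genes of a DNA sensing list, 7 rose and 10 fell in IFNA4 and 6 rose and 5 fell in IFNA9 tumors against GFP. Of all genes 31.3% and 26.9% passed as higher and 34.1% and 28.9% as lower in these comparisons, so the shares that rose were near those of all genes. Cgas, the enzyme that makes cGAMP on cytosolic DNA, rose by 1.10 (SE 0.15, adjusted p = 1.55e-07) and 0.95 (SE 0.15, adjusted p = 3.53e-06). Zbp1, a sensor of Z-form nucleic acid, rose by 3.19 and 3.12, and Tlr9, the endosomal DNA receptor, had the largest rise of the list in IFNA4 tumors with 3.80. In IFNA9 tumors Zbp1 had the largest rise.

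The largest falls were Xrcc6, a DNA end-binding protein, with -1.09 in IFNA4 and Hmgb1, a chromatin protein, with -0.83 in IFNA9 tumors. Between the interferons 6 were higher and 1 lower in IFNA9 tumors, where 10.5% of all genes passed as higher and 7.25% as lower. Xrcc6 led the higher genes with 0.56, and Tlr9 was the lower gene with -0.85 (adjusted p = 0.00121 and 0.0131). Trex1 was listed at 0 in all 30 tumors. As the annotation and counting rules are not given in the sources used here, this need not mean that its RNA was absent. Sting1 was not analysed here.

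Inflammasome genes rose nearly throughout, with median log2 fold changes of 1.00 and 0.79 in IFNA4 and IFNA9 against GFP tumors. Of 19 tested genes 18 rose and 1 fell in IFNA4 tumors, and 15 rose and 1 fell in IFNA9 tumors, beside the 31.3% and 26.9% of all genes that passed as higher. Pycard, the adaptor of Aim2, rose by 1.00 (SE 0.10, adjusted p = 5.18e-10) and 0.80 (SE 0.10, adjusted p = 7.55e-08). Casp4, which codes for the lipopolysaccharide-sensing caspase-11, rose by 2.34 and 1.68, Nlrp3 by 1.63 and 1.34 and Il18 by 0.97 and 0.60.

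Il1b rose by 0.67 in IFNA4 tumors (adjusted p = 0.00635), and its value in IFNA9 tumors was 0.12 (adjusted p = 0.631). The largest rise was Il18bp, the binding protein that neutralises interleukin-18, with 2.44 and 3.05, and the gene that fell was Ninj1, which ruptures the membrane of dying cells, with -1.05 and -0.77. Between the interferons 5 of the 19 were lower and 1 higher in IFNA9 tumors, beside 7.25% of all genes lower and 10.5% higher. The largest fall was Il1rn, the interleukin-1 receptor antagonist, with -0.79, and Casp4 and Il18 were also lower, with -0.66 and -0.37. Il18bp was the gene that was higher, by 0.60. Casp1 and Gsdmd were not analysed here.

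Upstream of the family, 9 of 10 tested genes of interferon signalling rose in each type against GFP, beside 31.3% and 26.9% of all genes. Of those with the highest mean level, Irf7 rose by 3.44 and 2.49 and Jak1 by 0.60 and 0.47 on the log2 scale. Between the interferons Irf7 was lower in IFNA9 tumors, with -0.96 (SE 0.19, adjusted p = 7.38e-04). Usp18, which holds back the receptor, was lower with -0.74, and Irf1, which interferons of type I and type II induce, was higher by 0.85. Of the 10 genes 2 were lower and 1 was higher, beside 7.25% and 10.5% of all genes. Ifnar1 was the gene that did not pass against GFP.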

How the data were processed

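RNA of whole tumors was made into stranded mRNA libraries and sequenced with single-end reads of 50 bases. Per the labels and the study's methods, the authors checked reads with FastQC (v0.11.3), aligned them with HISAT2 (v2.0.4) and obtained gene counts with summarizeOverlaps. What they deposited are raw counts, a whole number for each gene and tumor. The labels name mm10 as the genome build and the study's methods name another, and the annotation, the strand setting and the treatment of reads with several alignments are not given in the sources used here. Of the 39676 identifiers, 39495 were matched to GENCODE M21 (GRCm38), from which symbols, coordinates and transcripts were taken.

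The tests used edgeR 4.0.16 (R 4.3.3), with TMM scaling, a mean of at least 10 counts (15926 genes), 1 quasi-likelihood fit of all 30 tumors with 3 group means, and Benjamini-Hochberg adjustment over all genes. The standard error was the log2 fold change divided by the root of its F statistic. Log2 CPM took a prior count of 2. The fit was checked on simulated counts. DESeq2 1.42.0, other scalings and filters, a replicate block and the omission of each tumor were alternatives. Relations used 100000 permutations, whose smallest p is 1e-05. The labels call the tumors biological replicates, and no 2 columns were identical. No sequencing batch was given.

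The members and gene lists were chosen with earlier results of these data known. Named were the members, the other family rows, fixed genes of the DNA sensing and inflammasome lists with the largest called rise and fall of each, the genes of highest mean level in other lists, and the 2 nearest genes of each member. A gene that this rule names in the interferon signalling list is not reported here. Csf1r, Usp18, Irf1, Ifnar1, Gm18752 and Gm18445 were named after their values were seen. Sequence sets, values relative to Ptprc and the motif GAAATCGAAA were also added after the values or promoters were seen.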

Additional observations from a re-analysis of the deposited data

Results flagged for a closer look

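In each of the 14 family genes and 3 tumor types the highest and lowest log2 CPM were compared with the nearest other tumor by Dixon's ratio. The 42 groups searched were not independent, because the same tumors were read through 14 genes, many of which share sequence. The number of flagged groups therefore cannot show an excess over chance. Of the 42 groups, 8 held a tumor that stood apart, where chance flags about 1 in 20 groups, or 2.1. GFP tumor 7 was the low tumor in 5 of these, with log2 CPM of 0.63 for Aim2, 2.33 for Ifi214, 1.39 for Ifi203-ps, 4.38 for Ifi203 and 1.77 for Ifi202b. The next lowest GFP tumors were at 2.04, 3.38, 3.96, 6.22 and 3.36. IFNA9 tumor 5 was the low tumor in the other 3, with 6.18 for Ifi213, 8.97 for Ifi211 and 8.79 for Ifi205, and the next lowest were at 6.93, 9.61 and 9.55. Ptprc was lowest in the same tumors of each type, at 19.6 CPM in GFP tumor 7 and 161 CPM in IFNA9 tumor 5. The cause was not tested.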

How the results depend on the processing

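The 9 members stayed called as higher against GFP in all 37 alternatives of either comparison. Between the interferons, 4 members were called as lower, 2 when a 2-fold change was also asked for (1.39% of all genes), 8 when only the 20 tumors compared were fitted, and 2 to 8 when 1 tumor was left out. The replicate number as a block gave 3. The numbers did not pair the tumors (r of same-numbered tumors -0.27 to 0.30, over 0.1 in at most 2 of 10 pairs), and a tumor correlated best with its own number in at most 1 of 10 cases. DESeq2 called 6. Of all genes 7.25% were called as lower in the fit of 30 tumors, 12.4% with only the 20 tumors, 11.0% without GFP tumor 7, 6.57% with the block and 9.29% by DESeq2. Of the 54 relations 36 passed by r, 21 by rho and 23 by r without GFP tumor 7. By rho without that tumor, only Aim2 with Ptprc and Ifi207 with Irf7 passed in the GFP tumors. Ifi202b in IFNA9 against GFP tumors turned from -0.048 to 0.024 with library totals and ran from -0.17 to 0.067 when 1 tumor was left out. The cause was not tested. Library totals moved the median log2 fold change of all genes from 0.0092 to 0.087 in IFNA4 and from -0.0031 to 0.098 in IFNA9 against GFP. The members had at least 16 counts in every tumor, the 16 being Aim2 in GFP tumor 7, where counting error is largest.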
